A study of Mus musculus with 10 samples.

Results

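The 10 genes described here belong to the Atf4 branch of the cellular stress response and to the serine and one-carbon enzymes that this branch is known to control. They were taken by symbol from the table of raw counts, which holds 23337 genes, and each of the 10 was present and passed the filter on low counts. In the integrated stress response, kinases that sense amino acid shortage, haem deficiency, viral RNA or misfolded protein phosphorylate the translation factor eIF2alpha, which lowers protein synthesis but raises translation of Atf4, a leucine zipper transcription factor. Atf4 is known to activate Ddit3, Trib3 and Chac1, together with Asns and the enzymes that make serine from glucose and pass its carbon into the mitochondrial folate cycle. Since Atf4 is controlled mainly at translation, its messenger RNA level alone does not report its activity, and dividing stem and progenitor cells use serine carbon for nucleotide synthesis.

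RNA had been sequenced from embryoid bodies, aggregate cultures of mouse embryonic stem cells undergoing differentiation, from a line called iHA-Etv2 that carries Etv2, the master factor of the blood and endothelial lineage, under doxycycline control. There were 5 groups with 2 libraries per group. At day 2.5 these were doxycycline-treated samples labelled Flk1-positive, doxycycline-treated samples without that label, and untreated samples; at day 2 they were doxycycline-treated and untreated samples. The labels give no hours or concentration of doxycycline, and do not state whether samples without the Flk1 label were unsorted or were the negative fraction. All groups carry the same transgene, and the 1 line used was not set against a line without it, so an effect of doxycycline itself cannot be told apart from that of Etv2. The labels do not describe the replicates as separate cultures, and p-values therefore measure the spread between these libraries only, which may be technical.

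Library totals lay between 18074070 and 36068329 counts. Levels are given as CPM, counts scaled to a common library size with trimmed mean of M values (TMM) factors, or as RPKM, which are further divided by annotated exon length, where genes are compared. Etv2 stood at 323 and 303 CPM in Flk1-positive samples, 272 and 255 CPM with doxycycline at day 2.5, 6.57 and 7.50 CPM in untreated day 2.5 samples, 507 and 403 CPM with doxycycline at day 2, and 15.8 and 18.1 CPM in untreated day 2 samples. Reads of the induced and the endogenous gene cannot be separated. Kdr, which encodes Flk1, stood at 1008 and 986 CPM in Flk1-positive samples, 405 and 433 CPM with doxycycline at day 2.5 and 7.05 and 7.42 CPM in untreated day 2.5 samples, so both checks followed the labels. The replicates were least alike in the doxycycline-treated group of day 2, where the chi-square of their counts was 27.3 per gene, against 3.01 to 8.55 in the other groups.

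Promoter windows of 4 of the genes are shown because these genes carried the largest or opposed differences below. Trib3 and Psat1 fell in both induced groups of day 2.5 against untreated samples, Asns differed in direction between those groups, and Mthfd2 had the largest fall in induced samples that were not labelled Flk1-positive. Each window runs from 250 bases before to 30 bases after a RefSeq transcription start, 5′ to 3′ on the minus strand of GRCm38.p6, at chr2:152344031-152344310 (Trib3), chr19:15925030-15925309 (Psat1), chr6:7693180-7693459 (Asns) and chr6:83317575-83317854 (Mthfd2). For Psat1 and Mthfd2 the start lies inside the longer gene span of GENCODE M21. Capitals mark the letters TGATGNAA, a core of the element that binds Atf4 with a C/EBP partner, or TGGTGCAA, a variant chosen after the windows had been seen, on either strand.
Trib3: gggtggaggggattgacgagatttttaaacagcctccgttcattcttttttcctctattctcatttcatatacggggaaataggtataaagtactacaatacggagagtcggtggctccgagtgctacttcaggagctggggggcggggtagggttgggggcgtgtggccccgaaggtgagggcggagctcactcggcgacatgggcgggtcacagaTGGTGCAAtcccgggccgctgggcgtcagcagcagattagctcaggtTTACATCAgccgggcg
Psat1: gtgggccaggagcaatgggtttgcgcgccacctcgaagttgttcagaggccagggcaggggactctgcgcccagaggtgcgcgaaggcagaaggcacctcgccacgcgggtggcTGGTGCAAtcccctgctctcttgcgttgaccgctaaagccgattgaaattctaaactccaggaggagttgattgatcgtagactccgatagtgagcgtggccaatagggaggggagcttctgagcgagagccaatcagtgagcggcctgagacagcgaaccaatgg
Asns: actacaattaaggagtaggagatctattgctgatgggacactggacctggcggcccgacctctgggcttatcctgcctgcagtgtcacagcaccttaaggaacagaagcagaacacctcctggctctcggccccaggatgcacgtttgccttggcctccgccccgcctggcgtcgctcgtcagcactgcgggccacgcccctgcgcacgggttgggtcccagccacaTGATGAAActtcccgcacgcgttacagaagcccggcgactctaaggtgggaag
Mthfd2: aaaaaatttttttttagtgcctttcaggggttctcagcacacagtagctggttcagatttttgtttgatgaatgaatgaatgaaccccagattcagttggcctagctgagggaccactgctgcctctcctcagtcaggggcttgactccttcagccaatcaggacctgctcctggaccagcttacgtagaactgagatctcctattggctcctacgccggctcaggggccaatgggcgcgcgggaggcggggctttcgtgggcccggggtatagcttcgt
The letters TGATGNAA were found in 3.97% of 32851 windows of the same source, which reach somewhat further past the start than those printed, and in those of 4 of the 10 genes, namely Trib3, Chac1, Asns and Slc7a11. In Asns the match began 23 bases before the start and in Trib3 14 bases after it, and Slc7a11 held 2 matches, 66 and 47 bases before the start. TGGTGCAA was found in 0.536% of windows, and among the 10 genes in Trib3 (33 bases before the start) and Psat1 (136 bases before it), within a shared run of 12 letters, TGGTGCAATCCC. That run was held by 4 of all windows on the strand as given, and the opposite strand was not searched for it. CCGGAAG, a common form of the core bound by ETS factors, the family of Etv2, was in 8.86% of windows and in those of Ddit3, Shmt2 and a second Psat1 start. The Mthfd2 window held none of these motifs. These matches describe the letters of the windows only.

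The transcription factor itself was the most abundant of the 10 per length of transcript, with Atf4 between 85.8 and 121 RPKM over the 10 libraries. Atf4 (chromosome 15, 80255184 to 80257541, plus strand, with this and other gene positions in GRCm38) measured 223 and 204 CPM in Flk1-positive samples, 223 and 212 CPM with doxycycline at day 2.5, 275 and 286 CPM in untreated day 2.5 samples, 227 and 202 CPM with doxycycline at day 2, and 210 and 217 CPM in untreated day 2 samples. Only the untreated day 2.5 libraries stood apart, above all 8 others.

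The stress-response effectors were scarce. Ddit3, which encodes the pro-apoptotic factor CHOP, measured 5.70 and 5.19 CPM in Flk1-positive samples, 8.84 and 9.15 CPM with doxycycline at day 2.5, 6.79 and 6.96 CPM in untreated day 2.5 samples, 7.46 and 4.94 CPM with doxycycline at day 2, and 5.46 and 4.31 CPM in untreated day 2 samples. Its highest values were those of the doxycycline-treated day 2.5 libraries. Of its annotated exon length, 4.7% overlaps genes on the other strand, Mars among them, and whether counting used strand is not given in the sources used here.

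Trib3 (chromosome 2, 152337422 to 152344032, minus strand), a pseudokinase that binds Akt and CHOP, measured 3.30 and 3.13 CPM in Flk1-positive samples, 7.28 and 6.30 CPM with doxycycline at day 2.5, 12.6 and 10.8 CPM in untreated day 2.5 samples, 8.87 and 7.13 CPM with doxycycline at day 2, and 11.6 and 11.1 CPM in untreated day 2 samples. Every library with doxycycline lay below every untreated library, and the Flk1-positive pair lay lowest. Chac1, an enzyme that degrades glutathione, measured 5.41 and 4.77 CPM in Flk1-positive samples, 5.22 and 4.10 CPM with doxycycline at day 2.5, 6.14 and 4.02 CPM in untreated day 2.5 samples, 2.5 and 3.76 CPM with doxycycline at day 2, and 6.84 and 6.71 CPM in untreated day 2 samples. The 3 groups of day 2.5 overlapped in Chac1, which rested on 53 to 190 counts per library.

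Asns (chromosome 6, 7675169 to 7693254, minus strand), the synthetase that makes asparagine from aspartate and glutamine, measured 83.6 and 89.7 CPM in Flk1-positive samples, 156 and 173 CPM with doxycycline at day 2.5, 142 and 135 CPM in untreated day 2.5 samples, 123 and 121 CPM with doxycycline at day 2, and 125 and 123 CPM in untreated day 2 samples. The order was set by the 2 induced groups of day 2.5, which held the lowest and the highest pair. Slc7a11, the cystine importer of system xc-, stood at 0.986 to 2.45 RPKM over an exon length of 13922 bases. It measured 19.0 and 15.4 CPM in Flk1-positive samples, 13.7 and 16.3 CPM with doxycycline at day 2.5, 21.2 and 18.5 CPM in untreated day 2.5 samples, 33.5 and 26.0 CPM with doxycycline at day 2, and 29.8 and 34.0 CPM in untreated day 2 samples. All day 2 libraries lay above all day 2.5 libraries in Slc7a11.

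Serine synthesis from glucose starts with Phgdh, which oxidises 3-phosphoglycerate, and continues with the transaminase Psat1. Psat1 (chromosome 19, 15904678 to 15947337, minus strand) measured 100.1 and 100.7 CPM in Flk1-positive samples, 146 and 142 CPM with doxycycline at day 2.5, 238 and 218 CPM in untreated day 2.5 samples, 293 and 249 CPM with doxycycline at day 2, and 299 and 292 CPM in untreated day 2 samples. The 3 groups of day 2.5 did not overlap and lay in the order of Flk1-positive (lowest), doxycycline-treated and untreated samples. Phgdh measured 26.5 and 20.7 CPM in Flk1-positive samples, 16.7 and 19.3 CPM with doxycycline at day 2.5, 29.1 and 25.9 CPM in untreated day 2.5 samples, 44.4 and 29.4 CPM with doxycycline at day 2, and 41.6 and 46.3 CPM in untreated day 2 samples. The doxycycline-treated day 2 libraries differed from each other in Phgdh by more than any other pair did.

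In mitochondria Shmt2 splits serine into glycine and a one-carbon unit, which Mthfd2 oxidises. Mthfd2 (chromosome 6, 83305691 to 83325908, minus strand) measured 24.0 and 27.8 CPM in Flk1-positive samples, 30.7 and 32.7 CPM with doxycycline at day 2.5, 73.8 and 71.4 CPM in untreated day 2.5 samples, 61.6 and 54.4 CPM with doxycycline at day 2, and 72.3 and 74.8 CPM in untreated day 2 samples. Untreated libraries of the 2 days overlapped, and the induced groups lay below them in the order of day and Flk1 label. Shmt2 varied least of the serine and one-carbon genes, with 127 CPM in each Flk1-positive library, 140 and 142 CPM with doxycycline at day 2.5, 168 CPM in each untreated day 2.5 library, 162 and 154 CPM with doxycycline at day 2, and 147 and 151 CPM in untreated day 2 samples. The 3 groups of day 2.5 did not overlap in Shmt2, whose exons share 1.0% of their length with Ndufa4l2 on the other strand.

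**Figure D1:**
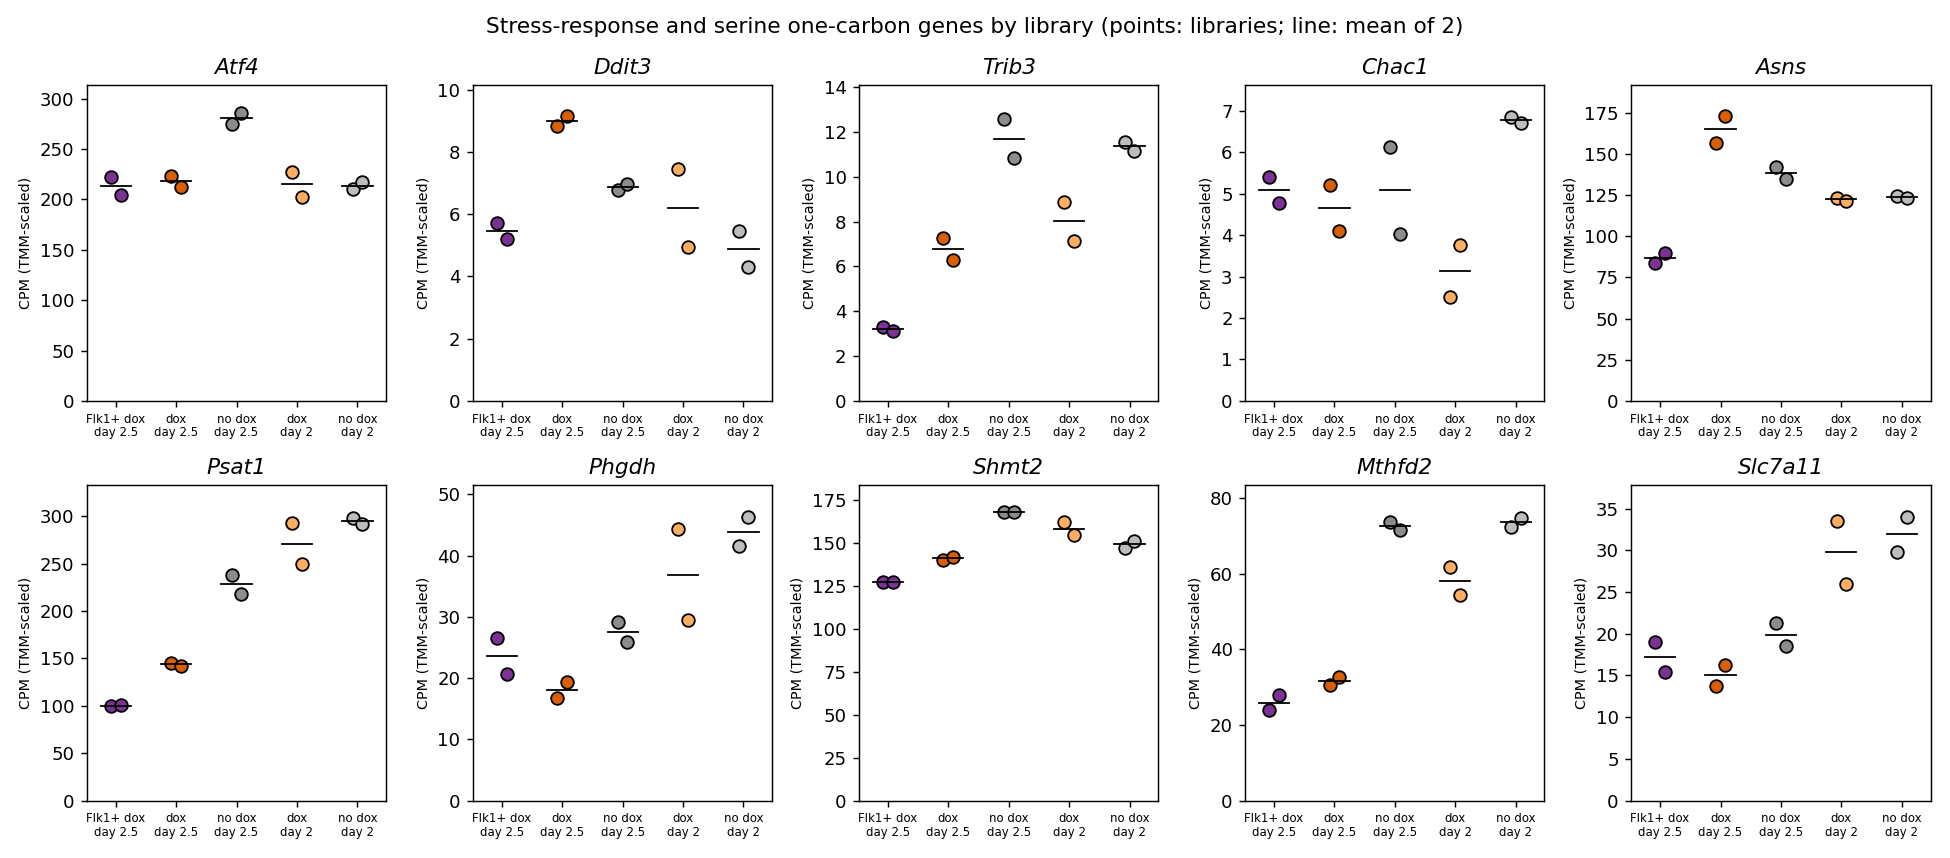
Level of each of the 10 genes in every library, in CPM scaled by TMM on axes that start at 0; points are libraries and lines are means of 2. Trib3, Psat1 and Mthfd2 are lowest in the Flk1-positive libraries, whereas Asns is highest with doxycycline at day 2.5 (156 and 173 CPM) and lowest in Flk1-positive samples (83.6 and 89.7 CPM).

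Doxycycline at day 2.5 went with lower serine and one-carbon transcripts. Mthfd2, Psat1, Trib3, Atf4, Phgdh and Shmt2 fell against untreated samples of the same day, and Asns rose, so that 6 of the 10 genes were called lower and 1 higher. Among all 14548 genes tested, 13.8% were called lower and 16.1% higher (29.9% in either direction). The 10 genes were chosen with earlier results of these data known, so their counts beside such shares describe them and test nothing. The median log2 fold change of the 10 genes was -0.38, beside 0.00 over all genes tested.

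Mthfd2 fell most, with a log2 fold change of -1.20 ± 0.11 (SE), which is a ratio of 0.437 (edgeR quasi-likelihood test, adjusted over the whole table by Benjamini-Hochberg as for every adjusted p below, adjusted p = 5.31e-07). Psat1 fell by 0.66 ± 0.09 on the log2 scale (edgeR, adjusted p = 5.88e-05). Trib3 fell by 0.78 ± 0.18 (edgeR, adjusted p = 0.00458) and Atf4 by 0.37 ± 0.09 (adjusted p = 0.00556). Smaller or less certain falls were those of Phgdh (-0.61 ± 0.18, edgeR adjusted p = 0.0163) and Shmt2 (-0.25 ± 0.08, adjusted p = 0.0267), and the rise of Asns was 0.25 ± 0.09 (adjusted p = 0.0393). The groups did not overlap in Slc7a11 either (-0.40 ± 0.16), but its adjusted p was 0.0741 by edgeR. Slc7a11 was called lower in 4 of 18 alternatives (without the count filter 0.0183, with only the groups compared 0.0242, and without either doxycycline-treated day 2 library 0.0163 and 0.0156). Ddit3 (0.39 ± 0.22, edgeR adjusted p = 0.20) and Chac1 (-0.12 ± 0.26, adjusted p = 0.77) did not pass. The calls of Mthfd2 and Psat1 were made in all 18 alternative settings, whereas Trib3 was not called without doxycycline replicate 2 (edgeR adjusted p = 0.063) or untreated replicate 1 (0.0538). Atf4 was not called without doxycycline replicate 2 (edgeR adjusted p = 0.0794), and Phgdh without doxycycline replicate 1 (0.103) or untreated replicate 1 (0.13). Shmt2 was not called without any 1 of the 4 libraries compared or of the untreated day 2 libraries (edgeR adjusted p = 0.0569 to 0.133), and Asns was called in 7 of 18 settings, missing with DESeq2 (0.0674), with DESeq2 size factors (0.0595), without the count filter (0.127) and without any 1 of 8 libraries (0.075 to 0.329).

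Cell type markers moved in the same comparison. Summed levels of 10 endothelial markers were 428 to 438 CPM with doxycycline at day 2.5 and 50.6 to 54.0 CPM in untreated samples, with Emcn at 0 in the untreated pair, and 9 of 9 tested markers were higher. Those of 10 blood markers were 673 to 691 CPM with doxycycline and 13.1 to 14.5 CPM untreated (7 of 8 tested higher), with the embryonic globin gene Hba-x at 0 in these 4 libraries and Hbb-bh1 at 0 in all of them but untreated replicate 2. Primitive streak markers summed to 957 to 1005 CPM with doxycycline and 3263 to 3644 CPM untreated (10 of 10 lower). Pluripotency markers summed to 2496 to 2541 CPM with doxycycline and 4161 to 4401 CPM untreated (5 of 10 lower, 3 higher). The 12 genes listed as markers of tissue dissociation summed to 363 to 371 CPM with doxycycline and 315 to 339 CPM untreated (4 of 11 tested higher, 3 lower). Their part in the differences of the 10 genes was not tested, and in these bulk samples fewer cells with a transcript and less of it per cell cannot be told apart.

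Within doxycycline-treated embryoid bodies of day 2.5, Flk1-positive samples had less Asns, Trib3, Psat1, Ddit3 and Mthfd2 than samples without that label, and none of the 10 genes was called higher by edgeR, DESeq2 or limma-voom, with 1 (Phgdh) pointing higher at an unadjusted p under 0.05. Among all genes tested, 21.3% were called lower and 20.5% higher (41.8% in either direction), so 5 of 10 lower stood beside a large background. Asns differed most clearly, at 86.7 ± 4.36 CPM in Flk1-positive samples and 165 ± 11.8 CPM in the others (SD, n = 2; log2 fold change -0.93 ± 0.09 SE, edgeR adjusted p = 1.30e-06). Trib3 fell to 3.21 ± 0.126 CPM in Flk1-positive samples, against 6.79 ± 0.695 CPM in the others (log2 -1.08 ± 0.21, edgeR adjusted p = 7.03e-04). Psat1 fell by 0.52 ± 0.09 on the log2 scale (edgeR adjusted p = 4.36e-04). The calls of Asns, Trib3 and Psat1 were made in every one of 18 alternatives. The call of Ddit3 (log2 -0.72 ± 0.22, edgeR adjusted p = 0.017) was lost without any 1 of the 4 libraries compared (0.0574 to 0.0984), and that of Mthfd2 (-0.29 ± 0.11, adjusted p = 0.0433) held in 8 of 18 alternatives, with -0.18 and an adjusted p of 0.323 without Flk1-positive replicate 1.

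The other 5 genes did not pass in this comparison. Atf4 (-0.03 ± 0.09), Chac1 (0.13 ± 0.26) and Slc7a11 (0.20 ± 0.16) overlapped between the groups, with edgeR adjusted p of 0.815, 0.726 and 0.351. Phgdh was the one of the serine enzymes whose value pointed upward (0.39 ± 0.18, edgeR adjusted p = 0.0881), and it was called higher in 5 of 18 alternatives, among them without either doxycycline-treated day 2 library (0.00847 and 0.00909). Shmt2 gave -0.15 ± 0.08 (edgeR adjusted p = 0.157). Marker sums moved here too, with endothelial markers at 1168 to 1243 CPM in Flk1-positive samples and 428 to 438 CPM in the others (7 of 9 tested higher, 1 lower). Blood markers summed to 1740 to 1831 CPM in Flk1-positive samples and 673 to 691 CPM in the others (6 of 8 tested higher), with Hbb-bh1 and Hba-x at 0 in both groups. Pluripotency markers summed to 1877 to 1977 CPM in Flk1-positive samples and 2496 to 2541 CPM in the others (7 of 10 lower). Primitive streak markers summed to 826 to 873 CPM in Flk1-positive samples and 957 to 1005 CPM in the others (7 of 10 lower, 3 higher). The 12 genes listed as markers of tissue dissociation summed to 291 to 343 CPM in Flk1-positive samples and 363 to 371 CPM in the others, and of 11 tested 1 was higher and 5 were lower. The part of any of these in the differences was not tested.

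Set against untreated samples, Flk1-positive samples were lower in 6 of the 10 genes, Trib3, Mthfd2, Psat1, Asns, Shmt2 and Atf4, and higher in 0, whether by edgeR (also 0 at an unadjusted p under 0.05), DESeq2 or limma-voom. Among all genes tested, 26.6% were called lower and 28.6% higher (55.3% in either direction). This comparison shares its untreated libraries with the doxycycline comparison of the same day and its Flk1-positive libraries with the one above. Trib3 had the largest difference, a log2 fold change of -1.86 ± 0.20 or a ratio of 0.276 (edgeR adjusted p = 1.84e-06). The log2 fold change of Mthfd2 was -1.49 ± 0.11 (edgeR adjusted p = 2.14e-08), and that of Psat1 was -1.19 ± 0.09 (adjusted p = 4.97e-08). Asns changed by -0.68 ± 0.09 (edgeR adjusted p = 1.15e-05), a direction opposite to its rise in doxycycline-treated samples without the Flk1 label. Shmt2 (-0.40 ± 0.08, edgeR adjusted p = 6.43e-04) and Atf4 (-0.40 ± 0.09, adjusted p = 0.00149) fell less. All 6 were called in each of 18 alternatives. Phgdh, Slc7a11 and Chac1 overlapped between these groups (log2 -0.21, -0.20 and 0.01), and Ddit3 gave -0.33 ± 0.23 (edgeR adjusted p = 0.229). Endothelial markers summed to 1168 to 1243 CPM in Flk1-positive samples and 50.6 to 54.0 CPM in untreated samples (8 of 9 tested higher). Blood markers summed to 1740 to 1831 CPM in Flk1-positive samples and 13.1 to 14.5 CPM in untreated samples (8 of 8 tested higher). The globin genes Hbb-bh1 and Hba-x, which were not among the 8 tested, were at 0 in both Flk1-positive libraries. Primitive streak markers summed to 826 to 873 CPM in Flk1-positive samples and 3263 to 3644 CPM in untreated samples (9 of 10 lower). Pluripotency markers summed to 1877 to 1977 CPM in Flk1-positive samples and 4161 to 4401 CPM in untreated samples (5 of 10 lower, 2 higher). Dissociation genes summed to 291 to 343 CPM in Flk1-positive samples and 315 to 339 CPM in untreated samples (4 of 11 tested higher, 5 lower). The part of these markers in the differences was not tested.

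**Figure D2:**
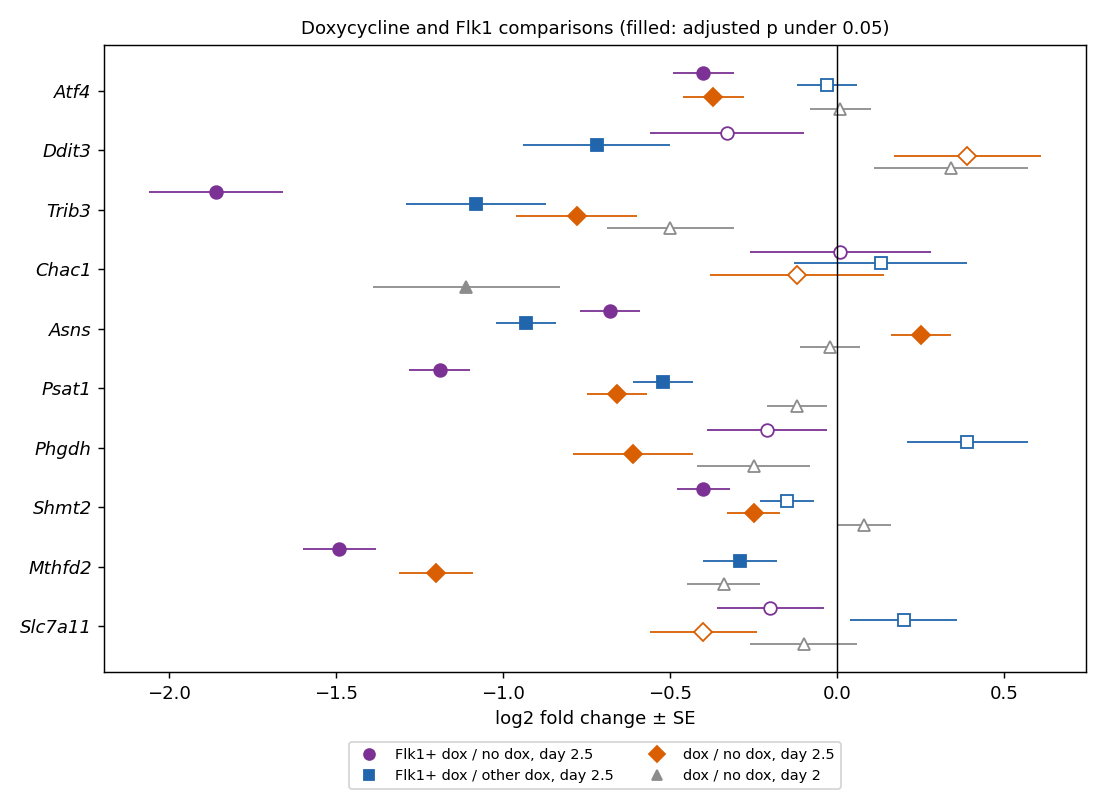
Log2 fold change ± SE of the 10 genes in 4 comparisons, 2 libraries per group, with filled symbols where the edgeR adjusted p is under 0.05. Mthfd2, Psat1 and Trib3 lie left of 0 in each comparison of day 2.5, while Asns lies at 0.25 for doxycycline against untreated samples and at -0.68 and -0.93 for Flk1-positive samples.

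At day 2 doxycycline moved little among these genes. Chac1 was the single gene of the 10 to pass, at 3.13 ± 0.892 CPM with doxycycline and 6.78 ± 0.093 CPM untreated (SD, n = 2; log2 -1.11 ± 0.28 SE, edgeR adjusted p = 0.031), when 1.56% of all genes tested were called lower and 3.11% higher (4.67% in either direction). The values of Mthfd2 (-0.34 ± 0.11) and Trib3 (-0.50 ± 0.19) lay below 0 without overlap between the groups, with edgeR adjusted p of 0.0873 and 0.168. The remaining 7 had log2 fold changes between -0.25 (Phgdh) and 0.34 (Ddit3) and edgeR adjusted p from 0.524 to 0.977. The Chac1 call was lost without doxycycline replicate 1 (edgeR adjusted p = 0.0804), either untreated library (0.163 and 0.195), either Flk1-positive library (0.0514 and 0.0515), and with only the compared groups fitted (0.164). Without doxycycline replicate 1, one of the unlike pair of that group, Mthfd2 (-0.44, adjusted p = 0.00898), Phgdh (-0.58, 0.0101) and Psat1 (-0.25, 0.0438) were called lower. Dissociation genes summed to 315 to 388 CPM with doxycycline at day 2 and 264 to 267 CPM in untreated samples of that day (5 of 11 tested higher, 1 lower). Primitive streak markers summed to 1508 to 1586 CPM with doxycycline and 1734 to 1744 CPM untreated (5 of 10 lower, 1 higher). Endothelial markers summed to 104 to 109 CPM with doxycycline and 66.7 to 74.1 CPM untreated (3 of 9 higher), with Emcn at 0 in all 4 libraries. The part of these lists in the Chac1 call was not tested.

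Whether the doxycycline effect differed between the days was tested directly. Since the labels give no hours of doxycycline, day and length of exposure cannot be told apart here. For Mthfd2 (-1.20 and -0.34) and Psat1 (-0.66 and -0.12) the log2 fold change with doxycycline was more negative at day 2.5 than at day 2. The difference between the days was -0.85 ± 0.15 for Mthfd2 (edgeR adjusted p = 0.00155) and -0.54 ± 0.13 for Psat1 (adjusted p = 0.0131). Over all genes tested this difference was called lower for 5.24% and higher for 6.87% (12.1% in either direction). Atf4 (-0.37 ± 0.13, edgeR adjusted p = 0.0652), Shmt2 (-0.34 ± 0.11, 0.0672) and Chac1 (0.99 ± 0.38, 0.108) did not pass, nor did the other 5 genes. Among markers, the same difference was called lower for 10 of 10 primitive streak genes and higher for 8 of 9 endothelial genes tested, and their part was not tested. Mthfd2 was called in all 18 alternatives. Psat1 was not called without doxycycline day 2.5 replicate 2, untreated day 2.5 replicate 1 or either untreated day 2 library (edgeR adjusted p = 0.0641 to 0.0786), and without doxycycline day 2 replicate 2 the lower calls numbered 5 and Chac1 was called higher (1.31, adjusted p = 0.0173).

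Psat1, Phgdh and the cystine importer Slc7a11 were called lower at day 2.5 than at day 2 both with and without doxycycline, whereas Mthfd2 was called lower with doxycycline and Shmt2 was called in neither. With doxycycline, 4 of the 10 genes were lower at day 2.5 than at day 2 and 1 was higher, while 23.1% of all genes tested were called lower and 22.9% higher (46% in either direction). Phgdh fell by 1.03 ± 0.18 (edgeR adjusted p = 2.41e-04), Slc7a11 by 0.99 ± 0.16 (1.71e-04), Psat1 by 0.91 ± 0.09 (2.52e-06) and Mthfd2 by 0.87 ± 0.11 (1.41e-05) in log2 units, and Asns rose by 0.43 ± 0.09 (9.78e-04). These 5 calls were made in all 18 alternatives. Ddit3 gave 0.54 ± 0.22 (edgeR adjusted p = 0.0583) and was called higher in 5 of 18 alternatives, among them without doxycycline day 2 replicate 1 (0.87, adjusted p = 0.00798) and with replicate number as a block (0.0459). Atf4 (0.02 ± 0.09, edgeR adjusted p = 0.87), Trib3 (-0.24 ± 0.19, 0.324), Chac1 (0.58 ± 0.28, 0.103) and Shmt2 (-0.17 ± 0.08, 0.106) did not pass. With doxycycline, pluripotency markers summed to 2496 to 2541 CPM at day 2.5 and 4128 to 4517 CPM at day 2 (8 of 10 lower, 1 higher). Primitive streak markers summed to 957 to 1005 CPM at day 2.5 and 1508 to 1586 CPM at day 2 (9 of 10 lower). Endothelial markers summed to 428 to 438 CPM at day 2.5 and 104 to 109 CPM at day 2 (8 of 9 higher, 1 lower). Their part in these differences was not tested.

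Without doxycycline, 3 genes were lower at day 2.5 and 1 was higher, beside 10.3% and 9.22% of all genes tested (19.5% in either direction). Slc7a11 fell by 0.68 ± 0.16 (edgeR adjusted p = 0.00927), Phgdh by 0.68 ± 0.17 (0.0147) and Psat1 by 0.37 ± 0.09 (0.0122) in log2 units, and Atf4 rose by 0.40 ± 0.09 (0.007). Mthfd2 gave -0.02 ± 0.11 (edgeR adjusted p = 0.923), so the untreated libraries of the 2 days did not separate in this gene. None of these 4 calls was made without untreated day 2.5 replicate 2 or without untreated day 2 replicate 2 (edgeR adjusted p = 0.0627 to 0.156), and without untreated day 2 replicate 1 the call of Slc7a11 was the one of the 4 still made. Markers also moved with day in untreated samples, the primitive streak sum being 3263 to 3644 CPM at day 2.5 and 1734 to 1744 CPM at day 2 and the pluripotency sum 4161 to 4401 CPM at day 2.5 and 4783 to 4937 CPM at day 2; their part was not tested.

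**Figure D3:**
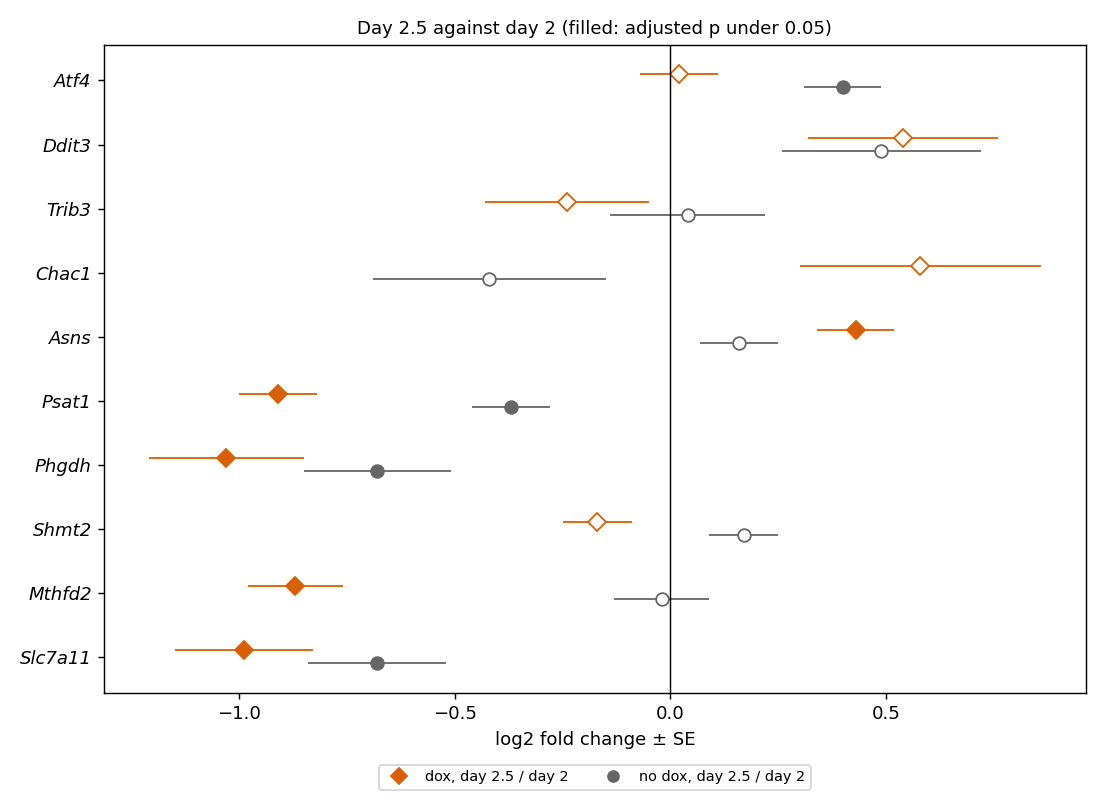
Log2 fold change ± SE of day 2.5 against day 2 for the 10 genes with doxycycline (diamonds) and without it (circles), 2 libraries per group, filled where the edgeR adjusted p is under 0.05. Psat1, Phgdh and Slc7a11 are filled and left of 0 in both, whereas Mthfd2 is at -0.87 with doxycycline and -0.02 without it.

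Genes around the 10 in the same pathways were read from lists, and up to 3 genes per list with the smallest adjusted p were open to naming in a comparison. The lists too were chosen with earlier results of these data known, so their counts are descriptions and not tests. The counts below stand beside 13.8% lower and 16.1% higher among all genes tested with doxycycline at day 2.5, and 26.6% lower and 28.6% higher in Flk1-positive against untreated samples. Among the kinases, regulators and phosphatase subunits acting on eIF2alpha, Ppp1r15a, which encodes the stress-induced GADD34 subunit that restores translation, averaged 170 CPM in Flk1-positive samples, 92.8 CPM in doxycycline-treated samples and 52.9 CPM in untreated samples of day 2.5. It rose by 0.81 ± 0.10 with doxycycline (edgeR adjusted p = 1.25e-05) and by 1.69 ± 0.10 in Flk1-positive against untreated samples (1.36e-09). Of the 10 genes of that list, 2 rose (Ppp1r15a and Eif2ak2) and 2 fell (Eif2s1 and Ppp1r15b) with doxycycline, and 4 rose and 4 fell in Flk1-positive against untreated samples, where the haem-regulated kinase gene Eif2ak1 fell by 0.89 ± 0.11 (edgeR adjusted p = 4.71e-06). The 4 that rose there became 2 without untreated replicate 2. With doxycycline, the 2 that fell became 0 without doxycycline replicate 2 or any 1 of the 4 untreated libraries of either day, 1 without doxycycline replicate 1, and 4 without either doxycycline-treated day 2 library. The 2 that rose became 1 without either doxycycline-treated day 2.5 library or untreated day 2.5 replicate 2.

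Of 13 tested partners and other stress targets of Atf4, 2 rose (Atf3 and Jdp2) and 3 fell (Ndrg1, Nars and Stc2) with doxycycline at day 2.5, and 3 rose (Atf3, Jdp2 and Cebpg) and 6 fell in Flk1-positive against untreated samples. Nars is counted again among the cytosolic aminoacyl-tRNA synthetases below. With doxycycline the rises numbered 1 to 2 and the falls 2 to 5 when single libraries were left out, with 5 falls without either doxycycline-treated day 2 library. Atf3, an immediate early and stress factor that was also among the dissociation genes, measured 25.8 CPM in Flk1-positive samples, 10.4 CPM with doxycycline and 3.92 CPM untreated, and its rise in Flk1-positive samples was 2.72 ± 0.18 (edgeR adjusted p = 6.94e-09). Ndrg1, which hypoxia also induces, fell by 3.79 ± 0.20 (edgeR adjusted p = 3.30e-10) and Stc2, a secreted stanniocalcin, by 3.66 ± 0.29 (5.11e-08) in that comparison.

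Other enzymes and carriers of serine, glycine and folate metabolism moved mostly downward. With doxycycline at day 2.5, 10 of 23 fell and 1, Gldc, rose (median log2 fold change -0.34), and in Flk1-positive against untreated samples 13 fell and 2 rose (median -0.38). Mthfd1, the cytosolic trifunctional folate enzyme, fell by 0.48 ± 0.08 with doxycycline (edgeR adjusted p = 2.29e-04) and by 0.81 ± 0.08 in Flk1-positive samples (4.47e-07). Gcsh, the H protein of glycine cleavage, fell by 0.42 with doxycycline (edgeR adjusted p = 0.00401) and by 0.72 in Flk1-positive samples (1.77e-05). The 10 falls with doxycycline became 4 without its replicate 1 and 5 without either untreated library.

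Cysteine, methionine, proline and aspartate enzymes showed 10 falls and 1 rise (Gclm) among 15 genes with doxycycline, and 9 falls and 2 rises in Flk1-positive against untreated samples. Cbs and Cth, the 2 steps of transsulfuration from homocysteine to cysteine, were low in both induced groups. Cbs averaged 6.39 CPM in Flk1-positive samples, 12.5 CPM with doxycycline and 33.8 CPM in untreated samples, and Cth averaged 5.46 CPM in Flk1-positive samples, 11.5 CPM with doxycycline and 23.4 CPM in untreated samples. The log2 fold changes in Flk1-positive against untreated samples were -2.40 ± 0.16 for Cbs (edgeR adjusted p = 8.19e-09) and -2.09 ± 0.15 for Cth (2.01e-08). The 10 falls with doxycycline became 6 without untreated replicate 1.

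Amino acid carriers were mixed, with 5 of 13 lower and 2 (Slc43a1 and Slc3a2) higher with doxycycline and 6 lower and 5 higher in Flk1-positive against untreated samples; the 5 became 2 to 6 in the alternatives. Slc7a3, a cationic amino acid carrier, fell by 3.06 ± 0.13 (edgeR adjusted p = 4.05e-11) and Slc1a4, a carrier of serine and alanine, by 1.61 ± 0.11 (6.47e-09) in Flk1-positive against untreated samples, while Slc43a1, a carrier of large neutral amino acids, rose by 2.10 ± 0.12 (8.81e-10). Slc3a2, the heavy chain that pairs with Slc7a11 and was named after its values had been seen, measured 299 CPM in Flk1-positive samples, 306 CPM with doxycycline and 248 CPM in untreated samples.

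Cytosolic aminoacyl-tRNA synthetases, several of which Atf4 is known to induce, had the highest share of falls among these lists other than the 4 Myc factors. With doxycycline at day 2.5, 15 of 20 fell and 0 rose by edgeR (0 also at an unadjusted p under 0.05 and by DESeq2 or limma-voom), and in Flk1-positive against untreated samples 16 fell and 1, Vars, rose. Falls in Flk1-positive samples included Iars (-0.95 ± 0.10, edgeR adjusted p = 9.18e-07), Aars (-0.86 ± 0.08, 4.29e-07) and Gars (-0.82 ± 0.08, 9.32e-07). The 15 became 9 without doxycycline replicate 2 or untreated replicate 1. Against untreated samples of day 2, doxycycline moved 0 of the 20 synthetases past the edgeR threshold. At an unadjusted edgeR p under 0.05, 2 of them were lower, and DESeq2 and limma-voom called 0. Of the 23 serine, glycine and folate genes, 0 passed by edgeR (2 lower unadjusted, 1 by DESeq2, 0 by limma-voom). Among all genes tested at day 2, 1.56% were called lower and 3.11% higher, so counts of 0 lay near these shares. In neither list did the lower calls stay at 0 in every fit with a library left out. Genes in brackets after a count were named after their values had been seen where they are not among the up to 3 with the smallest adjusted p.

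**Figure D4:**
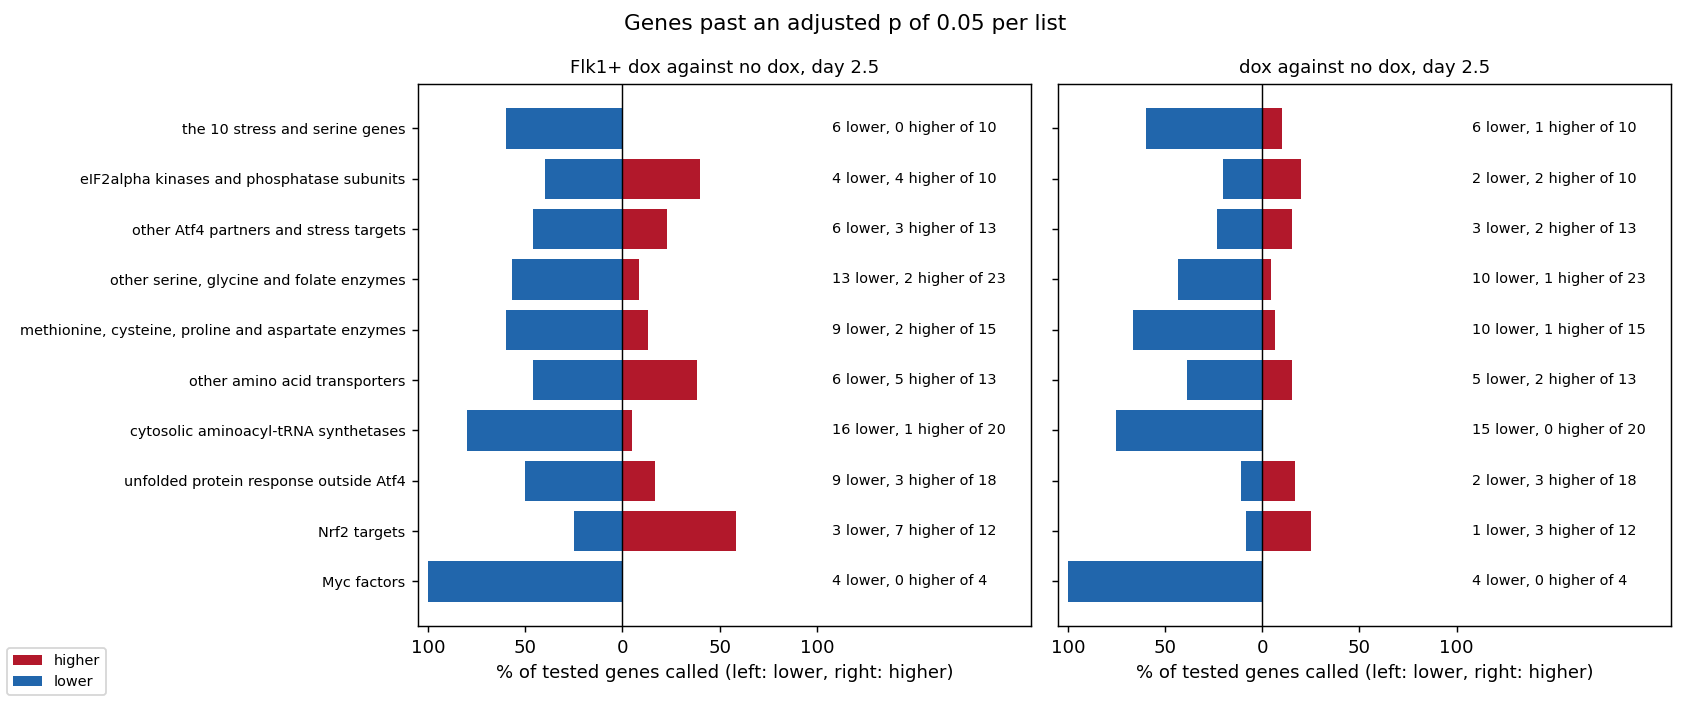
Share of tested genes called lower (left of 0) or higher (right of 0) by edgeR at an adjusted p under 0.05 in each list, in %, for Flk1-positive against untreated samples and for doxycycline-treated against untreated samples of day 2.5. In that order, the synthetases are 16 and 15 of 20 lower and 1 and 0 higher. The list labelled Nrf2 targets, which includes Nfe2l2 and Keap1, has 7 and 3 of 12 higher and 3 and 1 lower. Among all genes tested, not drawn here, 26.6% and 13.8% were called lower and 28.6% and 16.1% higher.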

How the data were processed

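Bulk RNA sequencing of 10 libraries in 5 groups was read from a table of raw counts per gene that the authors deposited. Per the submitters' processing notes, TopHat, HTSeq and DESeq2 were used with the mm10 build. Their versions and roles were not given in the sources used here, nor were the annotation, the strand setting or the handling of reads with several matches. The 92 spike-in entries held 0 counts and were left out. Library totals were 18074070 to 36068329 counts, so that the floor of 3 counts lay at 0.0824 to 0.164 CPM; it covers counting error only. No libraries were identical.

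CPM and RPKM were computed here from the deposited counts, RPKM with exon lengths from GENCODE M21 (98.0% of symbols matched). The filter on low counts was filterByExpr with a minimum count of 10 and a total of 15, which left 14548 of the 18526 genes with any count. The quasi-likelihood test of edgeR 4.0.16 (R 4.3.3, limma 3.58.1) was fitted to all 10 libraries with TMM scaling and 1 mean per group (5 residual degrees of freedom, common biological coefficient of variation 0.1). P-values of 7 comparisons were adjusted over all genes tested (Benjamini-Hochberg, threshold 0.05), and standard errors were taken from the F statistic. The procedure was tested on simulated data.

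The 18 alternatives were DESeq2 1.42.0, DESeq2 size factors, limma-voom, no low-count filter, only the compared groups, each library left out, replicate number as a block, removal of length and GC trends, and thinning to the smallest total. Each of the 10 genes was open to naming in every comparison, as were Etv2, Kdr and up to 3 genes of each other list with the smallest adjusted p. Some of the 10 that were not called in a comparison are not named there. The 10 genes and the lists were chosen with earlier results of these data known. Correlations among the genes are not reported, because the libraries fall into 5 groups. Promoter sequences came from RefSeq (GRCm38.p6), in which 10 of 10 genes matched, with 11 windows. Older symbols were used for Mycl (Mycl1) and Spi1 (Sfpi1). Results of some listed genes are not reported here.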

Additional observations from a re-analysis of the deposited data

Results flagged for a closer look

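The effect of doxycycline on 2 of the 10 genes differed between the days by a test of the difference itself. Among all genes tested, that difference was called lower for 5.24% and higher for 6.87% (12.1% in either direction). Day and length of exposure to doxycycline cannot be told apart in it. For Mthfd2 the log2 fold change at day 2.5 minus that at day 2 was -0.85 (edgeR adjusted p = 0.00155), the effects being -1.20 at day 2.5 and -0.34 at day 2. For Psat1 it was -0.54 (edgeR adjusted p = 0.0131), the effects being -0.66 at day 2.5 and -0.12 at day 2. The call of Mthfd2 was made in all 18 alternatives and that of Psat1 in 14.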

How the results depend on the processing

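With 2 libraries per group, calls near the threshold moved with single libraries, and Trib3, Chac1 and Ddit3 rested on at most 322 counts per library. Of the 10 genes, the single higher call with doxycycline at day 2.5 became 0 with DESeq2 size factors, without the count filter and with DESeq2. The lower call with doxycycline at day 2 became 0 with only the groups compared and 2 with length and GC trends removed. Higher calls in Flk1-positive against other doxycycline samples became 1 without the filter, with only the groups compared and with trends removed. Higher calls between days with doxycycline became 2 without the filter, with limma-voom, with the replicate block and with trends removed, and those without doxycycline 3 with only the groups compared. Lower calls for the difference of effects became 4 with DESeq2 and with trends removed, which also gave 1 higher call. Leaving out single libraries gave 0 to 1 higher and 3 to 7 lower calls with doxycycline at day 2.5, 0 and 0 to 3 at day 2, 0 to 1 and 3 to 5 in Flk1-positive against other doxycycline samples, 0 and 6 against untreated samples, 1 to 2 and 4 to 5 between days with doxycycline, 0 to 2 and 0 to 3 without, and 0 to 1 and 1 to 5 for the difference of effects. Signs turned only in values that were not called. With trends removed these were Atf4 with doxycycline at day 2 (-0.03) and Mthfd2 between days without doxycycline (0.01). Thinning turned Atf4 between days with doxycycline (-0.02), Ddit3 in the difference of effects (-0.01) and Chac1 in Flk1-positive against untreated samples (-0.05), and the last was -0.03 without the filter and -0.01 with DESeq2 or only the groups compared. Leaving out libraries gave Chac1 -0.40 to 0.21 with doxycycline at day 2.5, -0.27 to 0.34 in Flk1-positive against untreated samples and -0.04 to 0.31 against other doxycycline samples. It gave Atf4 -0.08 to 0.09 at day 2, -0.09 to 0.03 in Flk1-positive against other doxycycline samples and -0.06 to 0.11 between days with doxycycline. At day 2 Phgdh ranged over -0.58 to 0.02 and Slc7a11 over -0.30 to 0.07. Between days without doxycycline Mthfd2 ranged over -0.04 to 0.01 and Trib3 over -0.07 to 0.15, and Ddit3 over -0.22 to 0.38 in the difference of effects. The cause was not tested. Replicate differences showed little shared shift between groups (correlations -0.03 to 0.10 over 10 group pairs). The labels do not say what a replicate number marks, and these values cannot show whether samples were paired. The replicate block changed 1 member call, Ddit3 between days with doxycycline (0.55, edgeR adjusted p = 0.0459).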

Other observations

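The Myc family, which drives growth and biosynthetic genes, was low in both induced groups of day 2.5. Mycl1 averaged 15.5 CPM in Flk1-positive samples, 58.0 CPM with doxycycline and 157 CPM in untreated samples, and Myc 68.8 CPM in Flk1-positive samples, 47.5 CPM with doxycycline and 148 CPM in untreated samples. All 4 listed factors, Myc, Mycn, Mycl1 and the partner Max, were lower against untreated samples in both comparisons and in all 18 alternatives of each (edgeR adjusted p up to 5.01e-04). Among all genes tested, 13.8% were called lower with doxycycline at day 2.5 and 26.6% in Flk1-positive against untreated samples. Between the induced groups Myc itself was higher in Flk1-positive samples (log2 0.53, edgeR adjusted p = 1.65e-04), while Mycl1 was lower (-1.90, adjusted p = 1.61e-09).

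Of 12 genes listed for Nrf2, the factor of the antioxidant response, 7 were called higher and 3 lower (G6pdx, Gsr and Txnrd1) in Flk1-positive against untreated samples. Among all genes tested, 28.6% were called higher and 26.6% lower. Besides targets, the list holds Nfe2l2, which encodes Nrf2, and Keap1, its inhibitor. Its summed level was 2245 to 2250 CPM in Flk1-positive samples and 2156 to 2198 CPM in untreated samples. Srxn1, sulfiredoxin, averaged 64.6 CPM in Flk1-positive and 25.4 CPM in untreated samples (edgeR adjusted p = 1.51e-07), and Hmox1, haem oxygenase, 122 CPM in Flk1-positive and 59.8 CPM in untreated samples (3.42e-07). Of 18 genes of the unfolded protein response outside Atf4, 9 were lower and 3 higher in that comparison, beside the same shares. Pdia4 (log2 -0.71, edgeR adjusted p = 3.65e-06) and Manf (-0.72, 4.21e-06) were lower. The chaperone gene Calr averaged 629.7 CPM in Flk1-positive and 1076 CPM in untreated samples (edgeR adjusted p = 5.21e-06). Xbp1, a transcription factor of that response, averaged 79.5 CPM in Flk1-positive and 48.5 CPM in untreated samples (edgeR adjusted p = 2.50e-05). Edem1 and Dnajc3 were the other higher genes, and these 3 higher genes were named after their values had been seen.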
